A study of Homo sapiens with 6 samples.

Results

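The genes described here are 42 genes of peroxisomes and of fatty acid oxidation, chosen by name from a list and not by a threshold on their values. All 42 were found among the 16306 genes of the deposited gene table, and all 42 passed the filter on low counts that left 12620 genes for testing. They were kept apart by role as 15 enzymes of peroxisomal oxidation and ether lipid synthesis, 12 peroxins (the proteins that build peroxisomes) and 15 proteins of mitochondrial oxidation. HSD17B4 and SCP2 were among the lipid genes that the study itself picked out of these libraries, so their differences are not independent evidence. RNA-seq was done on PC9 cells, an EGFR-mutant human lung adenocarcinoma line, which carried either a control shRNA (sh-NC, 3 libraries) or an shRNA against RBM10 (shRBM10, 3 libraries). RBM10 is an RNA-binding protein that regulates splicing. Both groups carried an shRNA, and the sources used here name neither the RBM10 hairpin of each library nor a drug or time point. Nothing in the labels says that the libraries came from separate cultures, so the p-values measure only the spread between these libraries, which may be technical.

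Fatty acids are broken down by beta-oxidation in both organelles. Peroxisomes shorten very long-chain and branched-chain fatty acids and bile acid intermediates and carry out the first steps of plasmalogen synthesis, while mitochondria oxidise the common long-, medium- and short-chain fatty acids that enter through the carnitine shuttle. Peroxisomes import their enzymes fully folded from the cytosol, and peroxins form the receptors, the membrane docking site and the recycling machinery for that import.

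The total count was 18181902 to 18864241 per sh-NC library and 16606401 to 18526158 per shRBM10 library. RBM10 itself had normalized counts of 1418, 1172 and 1455 in the controls, given in the order of replicates 1 to 3, against 531.8, 509.6 and 666.0 in the knockdown, given in the order of libraries A to C, for a log2 fold change of -1.24 (SE 0.23, edgeR adjusted p = 0.1). A normalized count is the count scaled to a common effective library size by edgeR's TMM factors. The factor of sh-NC replicate 2 was 0.738, against 1.033 to 1.08 in the other 5 libraries, so this library stood apart. Of 8 epithelial markers, 8 had at least 10 counts in every library (summed count 624900 to 746567 in sh-NC against 444045 to 690534 in shRBM10). The protocol text of the labels mentions retinas, and of 6 photoreceptor markers the 3 analysed here (CRX, PDE6A and PDE6B) summed to 8 to 14 counts in sh-NC against 18 to 36 in shRBM10. Markers of endothelial cells summed to 73 to 207 and 48 to 72 counts, those of pericytes and fibroblasts to 43 to 137 and 105 to 212, and those of astrocytes to 1 to 2 and 3 to 6. Leukocyte markers summed to 2074 to 2442 and 1801 to 2430 counts, nearly all of them CD68, with PTPRC at 0 to 7 counts. The part of such cells in the results was not tested. In bulk RNA, fewer cells of a kind and less RNA per cell cannot be told apart.

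Promoters are shown for HSD17B4 and SCP2, which the study had singled out, and for PEX26, the member with the smallest p-value among those lower in shRBM10. Each spans 250 bases before to 50 bases after the RefSeq start on GRCh38.p14, all on the plus strand, at chr5:119452247-119452546, chr1:52927026-52927325 and chr22:18077740-18078039. Capitals mark matches to the GC box GGGCGG on either strand, and these promoters held no match to the other 3 motifs searched, so no matches to different motifs overlapped.
HSD17B4: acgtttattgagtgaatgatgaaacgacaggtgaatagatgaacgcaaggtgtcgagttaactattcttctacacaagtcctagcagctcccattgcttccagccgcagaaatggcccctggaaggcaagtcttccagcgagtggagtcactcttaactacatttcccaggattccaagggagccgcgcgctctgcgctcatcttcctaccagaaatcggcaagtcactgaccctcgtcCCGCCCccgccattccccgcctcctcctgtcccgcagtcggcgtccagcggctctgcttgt
SCP2: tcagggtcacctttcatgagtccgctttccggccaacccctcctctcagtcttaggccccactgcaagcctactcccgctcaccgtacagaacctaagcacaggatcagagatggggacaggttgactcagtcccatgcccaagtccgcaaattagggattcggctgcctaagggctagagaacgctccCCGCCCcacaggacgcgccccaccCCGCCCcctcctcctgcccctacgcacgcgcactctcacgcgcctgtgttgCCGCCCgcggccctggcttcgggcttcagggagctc
PEX26: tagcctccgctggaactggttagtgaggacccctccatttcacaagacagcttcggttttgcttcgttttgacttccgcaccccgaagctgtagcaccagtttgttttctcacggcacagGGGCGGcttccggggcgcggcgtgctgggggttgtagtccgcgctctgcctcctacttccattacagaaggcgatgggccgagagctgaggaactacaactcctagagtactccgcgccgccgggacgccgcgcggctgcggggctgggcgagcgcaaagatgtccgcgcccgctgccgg
Of the 42 members, 36 had a promoter in the RefSeq table. The GC box was found in 26 of these 36 (72.2%), against 70.8% of the 10339 promoters of genes tested. The CCAAT box (CCAAT, either strand) was found in 11 of 36 (30.6%, against 36.3%). The nuclear receptor half-site AGGTCA, in the promoter of AGPS, was found in 1 of 36 (2.8%, against 9.8%), and the E-box CACGTG in 3 of 36 (8.3%, against 10.2%). HSD17B4, higher in shRBM10, and PEX26, lower, each held 1 GC box, and a match of letters is not evidence that a factor binds there.

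The 42 genes did not move as 1 block. Tested with edgeR's quasi-likelihood fit and Benjamini-Hochberg adjustment over all genes, 0 of the 42 members had an adjusted p under 0.05, as did 0.0158% of all genes tested (2 of 12620). At an unadjusted p under 0.05, 10 members passed, 9 higher in shRBM10 (21.4%, against 15.7% of all genes) and 1 lower (2.38%, against 8.60%). At the paired limits (an unadjusted p below 0.05 together with a log2 fold change beyond 1 in either direction), 6 members were higher (14.3%, against 10.1% of all genes) and 0 were lower (against 1.53%). After the GC trend of every library was taken out (a loess fit on transcript GC content), 0 members passed these limits on the higher side, against 2.42% of all genes. The 6 without that correction were HSD17B4, SCP2, EHHADH and AGPS of peroxisomal oxidation, the peroxin PEX3 and the mitochondrial ETFDH. DESeq2's Wald test gave an adjusted p under 0.05 for 3 higher members, HSD17B4 (0.017), SCP2 (0.0288) and PEX3 (0.0377), against 3.80% of all genes, and for 1 lower member, PEX26 (0.0257), against 1.43%. The groups did not overlap for 6 members that were higher in every shRBM10 library than in every sh-NC library (14.3%, against 13.8% of all genes) and for 7 that were lower (16.7%, against 16.2%). For each of these 13 the two-sided exact permutation test gave p = 0.1, the smallest that 3 against 3 libraries allow.

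Medians of the 3 groups lay on both sides of 0 without a GC correction. With it, those of peroxisomal and mitochondrial oxidation lay nearer to 0 and that of biogenesis farther from 0. Peroxisomal oxidation had a median log2 fold change of 0.51, with 13 of 15 genes above 0, peroxisome biogenesis one of -0.07 with 5 of 12 above 0, and mitochondrial oxidation one of -0.22 with 6 of 15 above 0. The median of all genes tested was 0.03, with 6514 of 12620 above 0, and that of all genes under 50% GC was 0.51. With the GC correction the medians were 0.13, -0.15 and -0.03. In shRBM10 library C alone, the median log2 level of peroxisomal oxidation relative to the sh-NC mean was 0.09, below the 0.28 of sh-NC replicate 2. No test compared the groups. Across 17 other settings, the number of peroxisomal oxidation genes above 0 lay between 11 and 15 and their median between 0.10 and 0.68. The medians of the other two groups changed sign between settings, from -0.20 to 0.08 for biogenesis and from -0.30 to 0.13 for mitochondrial oxidation.

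**Figure D1:**
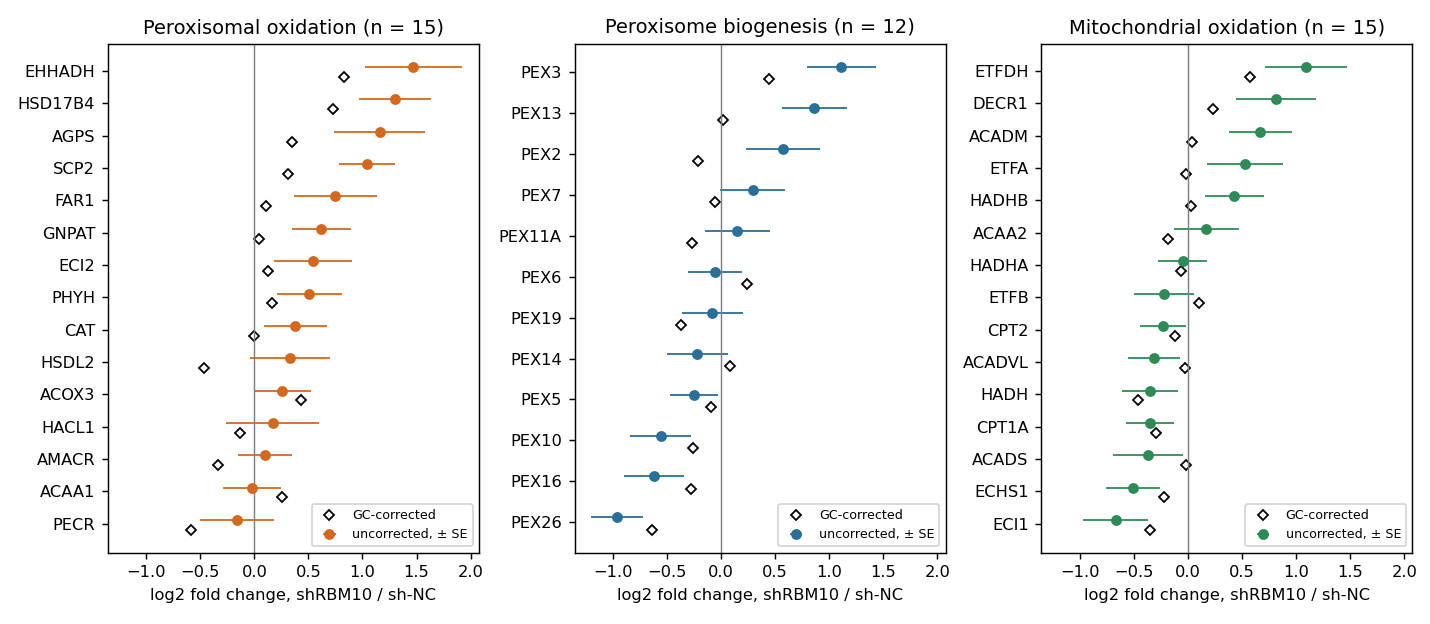
Log2 fold change of each of the 42 genes, shRBM10 over sh-NC, by group. Filled points with bars are uncorrected values ± standard error, and open diamonds are values after the GC trend of every library was taken out. Of the peroxisomal oxidation genes 13 of 15 lie above 0 without correction, and most members move toward 0 with it.

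Per length, transcripts of mitochondrial oxidation took the first 5 places among the 42 in the control cells. The authors' TPM, used for the 3 sh-NC libraries only, was highest for ETFB, the beta subunit of the electron transfer flavoprotein, with 520.66, 447.96 and 537.42. ECHS1, the enoyl-CoA hydratase, followed with 200.47, 146.16 and 201.33 TPM and ECI1, an enoyl-CoA isomerase, with 157.10, 144.47 and 157.79, and the ranges of ECHS1 and ECI1 overlapped while that of ETFB lay above both. Among peroxisomal oxidation genes, ACAA1, the peroxisomal thiolase, had the highest TPM (65.41, 54.01 and 66.66) and SCP2 the next (40.86, 17.10 and 44.98). HSD17B4 ranked 18 of 42, with 21.93, 8.63 and 19.71 TPM. EHHADH was the lowest of all, with 0.64, 0.11 and 0.58 TPM. The range of SCP2 overlapped those of HADHB and ETFA, the next in the order, and that of GNPAT (27.68, 20.80 and 28.77), the next of peroxisomal oxidation, so these cannot be ranked against it. Raw counts of the 42 lay between 8 and 5366 per library, and 38 members had at least 100 counts in every library.

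HSD17B4 encodes the D-bifunctional protein, which carries out the hydratase and dehydrogenase steps of peroxisomal beta-oxidation, and lies on chromosome 5 of GRCh38.p14 (119452497 to 119542332, plus strand). Its normalized count was 707.9, 549.3 and 626.6 in sh-NC against 2065, 1732 and 844.8 in shRBM10. All 3 shRBM10 libraries were above all 3 controls, but library C lay nearer to the controls than to A and B. The mean of 627.9 ± 79.3 (SD, n = 3) without the knockdown compared with 1547 ± 631 (SD, n = 3) under it, for a log2 fold change of 1.30 (SE 0.33, adjusted p = 0.144). It stayed between 1.04 and 1.54 when any 1 library was omitted and was 0.73 with the GC correction, and the adjusted p lay between 0.017 and 0.551 over the planned settings.

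SCP2 encodes sterol carrier protein and, from an upstream start, the SCPx thiolase for branched-chain substrates (chromosome 1, 52927276 to 53051698, plus strand). Its normalized count was 846.2, 636.1 and 862.6 in sh-NC against 1762, 1883 and 1180 in shRBM10, again with no overlap and with library C the lowest of its group. The mean went from 781.6 ± 126 (SD, n = 3) to 1608 ± 376 (SD, n = 3). The log2 fold change was 1.04 (SE 0.26, adjusted p = 0.142), between 0.83 and 1.17 when any 1 library was omitted. With the GC correction it was 0.31, no longer past an unadjusted p of 0.05.

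EHHADH, the L-bifunctional enzyme of the peroxisome, had the largest log2 fold change of the 42, 1.47 (SE 0.45, adjusted p = 0.154), on few reads. Its raw counts were 34, 8 and 31 in sh-NC against 86, 75 and 40 in shRBM10, and its normalized counts were 30.5, 10.8 and 27.7 against 87.5, 71.2 and 38.1. The groups did not overlap, and without sh-NC replicate 2 the log2 fold change was 1.08, and with the GC correction 0.83.

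The enzymes of ether lipid synthesis were higher than every control in libraries A and B, and not in C. AGPS, the synthase that makes the ether bond, had normalized counts of 494.1, 269.9 and 497.0 in sh-NC against 1388, 1004 and 431.0 in shRBM10, so library C lay among the controls. Its log2 fold change was 1.16 (SE 0.42, adjusted p = 0.17), and it was 0.83 without sh-NC replicate 2 and 0.35 with the GC correction. GNPAT, the acyltransferase of the same pathway, had 871.4, 1305 and 904.6 against 1887, 1685 and 1174, with library C below sh-NC replicate 2. The log2 fold change of GNPAT was 0.62 (SE 0.27, adjusted p = 0.194), and 0.04 with the GC correction. FAR1, the reductase that supplies the fatty alcohol, had 190.4, 101.7 and 168.9 against 316.3, 317.0 and 143.7 and did not pass at an unadjusted p under 0.05. Exons of AGPS overlap those of NFE2L2 on the opposite strand, and whether the counting used strand is not given in the sources used here.

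Some genes of the same pathway had values near 0 without a GC correction. ACAA1, which ends the beta-oxidation cycle, had normalized counts of 1248, 2005 and 1238 in sh-NC against 1180, 1524 and 1737 in shRBM10, for a log2 fold change of -0.02 (SE 0.27). AMACR, the racemase of branched-chain fatty acids, had 305.4, 413.7 and 312.9 against 357.9, 397.6 and 351.1, for a log2 fold change of 0.10 (SE 0.25). In both genes the groups overlapped and sh-NC replicate 2 was the highest library. With the GC correction ACAA1 was at 0.26 and AMACR at -0.34, neither past an unadjusted p of 0.05. The other 7 genes of this group (PHYH and HACL1 of alpha-oxidation, catalase CAT, the oxidase ACOX3, and HSDL2, ECI2 and PECR) had log2 fold changes between -0.16 and 0.54, and none passed at an unadjusted p under 0.05.

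**Figure D2:**
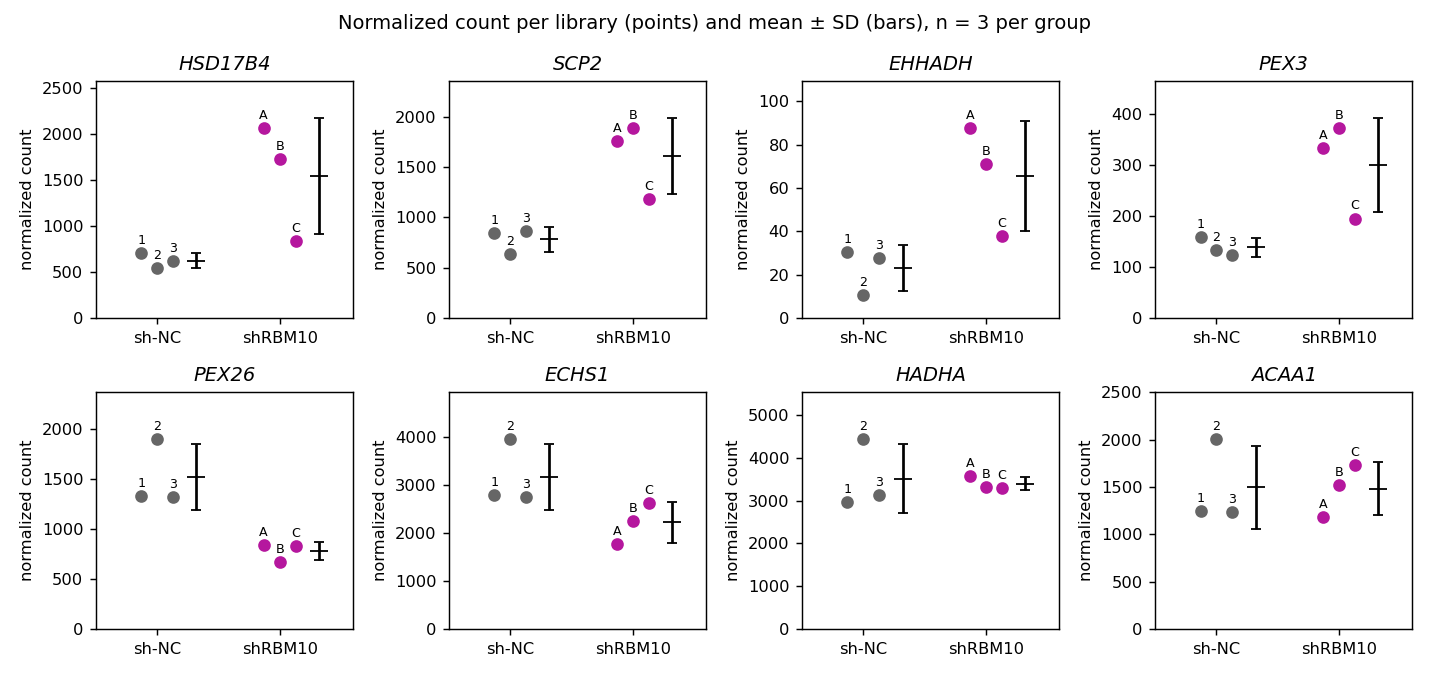
Normalized count (vertical axis) of 8 genes in each library, with numbers for sh-NC replicates and letters for shRBM10 libraries, and mean ± SD (n = 3) beside the points. For HSD17B4, SCP2, EHHADH and PEX3 all shRBM10 libraries lie above all sh-NC libraries with library C the lowest of the 3, PEX26 and ECHS1 lie below them, and HADHA and ACAA1 overlap.

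Among the peroxins, factors of the same route had values of opposite sign. PEX3, the docking factor for newly made membrane proteins, had normalized counts of 159.0, 132.9 and 124.2 in sh-NC against 332.5, 371.1 and 195.0 in shRBM10, for a log2 fold change of 1.11 (SE 0.32, adjusted p = 0.153) that was 0.44 with the GC correction. PEX16, which works with PEX3 in recruiting membrane proteins, had 1271, 2116 and 1200 against 798.3, 1053 and 1132, for a log2 fold change of -0.62 (SE 0.28, adjusted p = 0.208). In both genes the groups did not overlap, in opposite directions. PEX19, the soluble receptor of the same route, had 1056, 1994 and 1100 against 1262, 1269 and 1381, with overlapping groups and a log2 fold change of -0.08 (SE 0.28). With the GC correction PEX16 was at -0.28 and PEX19 at -0.37, neither past an unadjusted p of 0.05. Uncorrected and without sh-NC replicate 2, PEX16 was at -0.39.

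PEX26, the membrane anchor of the import-receptor recycling complex (chromosome 22, 18077990 to 18105396, plus strand), was the member with the smallest p among those lower in shRBM10. Its normalized count was 1333, 1899 and 1318 in sh-NC against 836.9, 671.9 and 831.5 in shRBM10. The shRBM10 libraries lay close together, all below the lowest control. The mean was 1517 ± 331 (SD, n = 3) against 780.1 ± 93.7 (SD, n = 3), for a log2 fold change of -0.96 (SE 0.24, adjusted p = 0.144), between -1.05 and -0.85 when any 1 library was omitted. The counts of PEX26 were fractional in 6 libraries, so part of its count is an estimate. Its GC content was taken from a transcript of 1672 bases, and that of PEX16 from 1 of 1335 bases. Yet PEX26 had 5.39, 3.84 and 5.41 TPM in sh-NC on 1483.53, 1399.77 and 1475.49 counts. PEX16 had 67.72, 56.81 and 65.27 TPM on 1415, 1560 and 1342 counts. The length behind the TPM of PEX26 may therefore differ, which was not tested, and its GC-corrected value is uncertain. PEX6, an ATPase of the complex that PEX26 anchors, had 392.6, 347.2 and 382.6 in sh-NC against 320.3, 336.0 and 418.6 in shRBM10, for a log2 fold change of -0.06 (SE 0.25).

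Without a GC correction the import machinery was as divided. PEX13, a docking protein, had normalized counts of 345.0, 405.6 and 359.3 in sh-NC against 891.8, 696.6 and 425.3 in shRBM10, for a log2 fold change of 0.86 (SE 0.30, adjusted p = 0.167) that was 0.02 with the GC correction. Library C exceeded the highest control by little. PEX14, its docking partner, had a log2 fold change of -0.22 (SE 0.28) and the receptor PEX5 one of -0.25 (SE 0.22). PEX10, a RING ligase of the same membrane complex, had 568.6, 850.4 and 589.9 against 366.1, 424.2 and 573.7, for a log2 fold change of -0.56 (SE 0.28, adjusted p = 0.235). PEX2, another RING ligase of that complex, had 292.0, 594.1 and 299.4 against 681.3, 629.2 and 444.3 and a log2 fold change of 0.57 (SE 0.34, adjusted p = 0.296). In both genes the groups overlapped. Library C lay above sh-NC replicate 1 in PEX10, and sh-NC replicate 2 lay above library C in PEX2. With the GC correction PEX10 was at -0.26 and PEX2 at -0.21, with the same sign, and PEX14 was at 0.08 and PEX5 at -0.09. PEX7, the receptor for the second import signal, and PEX11A, a division factor, had log2 fold changes of 0.29 and 0.15, under their standard errors of 0.30. Exons of PEX10 overlap RER1 and those of PEX13 overlap PUS10 on the opposite strand, and both genes had fractional counts.

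Of mitochondrial oxidation, ETFDH passed the paired limits. ETFDH passes electrons from fatty acid oxidation to ubiquinone, and its normalized counts were 71.9, 61.0 and 85.8 in sh-NC against 206.4, 179.4 and 82.8 in shRBM10. Library C lay below sh-NC replicate 3, and the log2 fold change was 1.09 (SE 0.38, adjusted p = 0.165), or 0.57 with the GC correction. Its counts were fractional in 6 libraries and its exons overlap PPID on the opposite strand, so its level is uncertain. ACADM, the medium-chain acyl-CoA dehydrogenase, had 327.9, 212.9 and 331.6 against 472.9, 554.2 and 363.4, without overlap, and a log2 fold change of 0.67 (SE 0.29, adjusted p = 0.197). DECR1, the dienoyl-CoA reductase for unsaturated fatty acids, had 206.6, 430.0 and 229.7 against 626.4, 569.4 and 321.6, with sh-NC replicate 2 above library C. The log2 fold change of DECR1 was 0.81 (SE 0.37, adjusted p = 0.208) and 1.13 without sh-NC replicate 2, where ACADM was at 0.41. With the GC correction ACADM was at 0.04 and DECR1 at 0.23, neither past an unadjusted p of 0.05.

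Other genes of mitochondrial oxidation lay on both sides of 0, and none of those given here passed at an unadjusted p under 0.05. ECI1 had normalized counts of 2670, 4800 and 2639 in sh-NC against 1570, 2404 and 2393 in shRBM10, for a log2 fold change of -0.67 (SE 0.30, adjusted p = 0.208). ECHS1 had 2785, 3947 and 2750 against 1769, 2254 and 2625, for a log2 fold change of -0.51 (SE 0.25, adjusted p = 0.23). In both the groups did not overlap, but library C (for ECI1, B and C) lay nearest to the lowest control and sh-NC replicate 2 was far above the other two. CPT1A, the carnitine acyltransferase that controls entry into mitochondria, had 1548, 1516 and 1717 against 1284, 1035 and 1435, without overlap, and a log2 fold change of -0.35 (SE 0.22, adjusted p = 0.322). CPT2 (-0.23) and HADH (-0.35) were also lower without overlap, while ACADVL (-0.31), ACADS (-0.37) and ETFB (-0.22) overlapped. ETFA (0.53) and HADHB (0.43) were above 0 with overlapping groups.

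Without a GC correction, values for subunits of 1 enzyme had opposite signs. HADHA, the alpha subunit of the mitochondrial trifunctional protein, had 2965, 4441 and 3129 in sh-NC against 3568, 3327 and 3296 in shRBM10, for a log2 fold change of -0.05 (SE 0.23), against 0.43 (SE 0.27) for the beta subunit HADHB. ETFA and ETFB, the 2 subunits of the electron transfer flavoprotein, had 0.53 (SE 0.35) and -0.22 (SE 0.28). None of these 4 values passed at an unadjusted p under 0.05. With the GC correction HADHA and HADHB were at -0.06 and 0.03, and ETFA and ETFB at -0.02 and 0.1. Without sh-NC replicate 2 and uncorrected, HADHA and HADHB were at 0.07 and 0.65, and ETFA and ETFB at 0.83 and -0.03. ACAA2, the mitochondrial thiolase, had 449.2, 775.8 and 413.0 against 708.8, 634.0 and 493.8, for a log2 fold change of 0.17 (SE 0.30). The differences within each pair were not tested.

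Across the 42 genes the fold change followed the GC content of the transcript. The GC content of the most counted transcript of each gene lay between 34.8% (FAR1) and 64.6% (ACADS), with a median of 44.0% in peroxisomal oxidation, 49.7% in biogenesis and 49.6% in mitochondrial oxidation, against 49.8% over all genes. Of the 27 members under 50% GC, 23 had a log2 fold change above 0 (median 0.53), and of the 15 members at or above 50%, 1 did (ACOX3; median -0.31). The same split over all genes tested gave 77.1% and 25.6% above 0, with medians of 0.51 and -0.26. Pearson's r between GC content and log2 fold change was -0.81 over the 42 members (Spearman's rho -0.86) and -0.58 over 12567 genes (rho -0.61). These are descriptions across genes of the same 6 libraries, which share depth and library preparation, and genes are not independent replicates. Pairs with opposite signs also differed in GC content, with 43.8% for ETFA and 62.0% for ETFB, and 35.4% for PEX3 and 63.0% for PEX16. The part of GC content in these differences was not tested apart from the GC correction.

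The trend was not equal among libraries. Across all genes, the level relative to the sh-NC mean had a Pearson correlation with GC content of -0.68 in shRBM10 library A and -0.63 in B, but of -0.12 in C. In sh-NC it was -0.22, 0.23 and -0.20 in replicates 1 to 3. Of the 24 members above 0, 22 had their lowest shRBM10 count in library C. The same share over all genes is not given here, so this count cannot be read as particular to the members. The median log2 level of the peroxisomal oxidation genes, relative to the sh-NC mean, was 0.90 in A, 0.65 in B and 0.09 in C, and -0.16, 0.28 and -0.12 in sh-NC replicates 1 to 3, so library C lay below sh-NC replicate 2. For biogenesis the shRBM10 medians were -0.14, -0.11 and 0.06 and for mitochondrial oxidation -0.27, -0.05 and -0.09, all within the range of the sh-NC libraries (-0.18 to 0.36 and -0.22 to 0.47) except the mitochondrial value of library A.

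**Figure D3:**
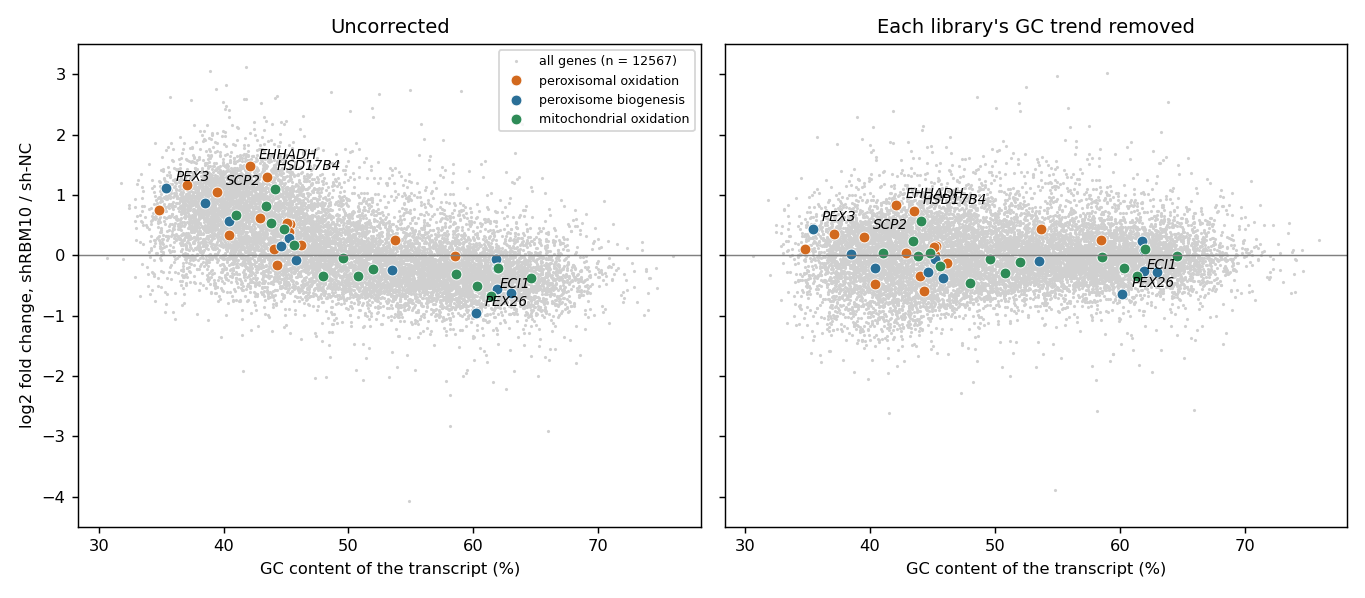
Log2 fold change (shRBM10 over sh-NC) against the GC content of the transcript in percent, for the 42 members (coloured by group) over all genes tested (grey), before and after each library's GC trend was removed. Before the correction members under 50% GC lie mostly above 0 and those over 50% mostly below, and after it Pearson's r over all genes is 0.02.

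After the GC trend of every library was taken out, the members with the largest differences were EHHADH, HSD17B4 and PEX26, each in its uncorrected direction. The log2 fold change became 0.73 for HSD17B4 (edgeR adjusted p = 0.151), 0.83 for EHHADH (adjusted p = 0.239) and -0.64 for PEX26 (adjusted p = 0.203). Together with ETFDH (0.57) and ACOX3 (0.43) these made 5 of 42 members at an unadjusted p under 0.05 (11.9%, against 18.1% of all genes with a GC value), and 0 passed the adjusted threshold. SCP2 was at 0.31 (adjusted p = 0.346), AGPS at 0.35, PEX3 at 0.44 and PEX13 at 0.02. No member had a corrected log2 fold change over 1. The GC content of PEX26, and so its corrected value, is uncertain. The sign changed for 12 of the 42, all of them with uncorrected values between -0.22 and 0.57. The medians became 0.13 for peroxisomal oxidation, -0.15 for biogenesis and -0.03 for mitochondrial oxidation, against -0.02 for all genes, and Pearson's r over the 42 became -0.25. The corrected medians of peroxisomal oxidation were 0.14, 0.30 and 0.02 in libraries A to C, none of them above the 0.34 of sh-NC replicate 2.

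**Figure D4:**
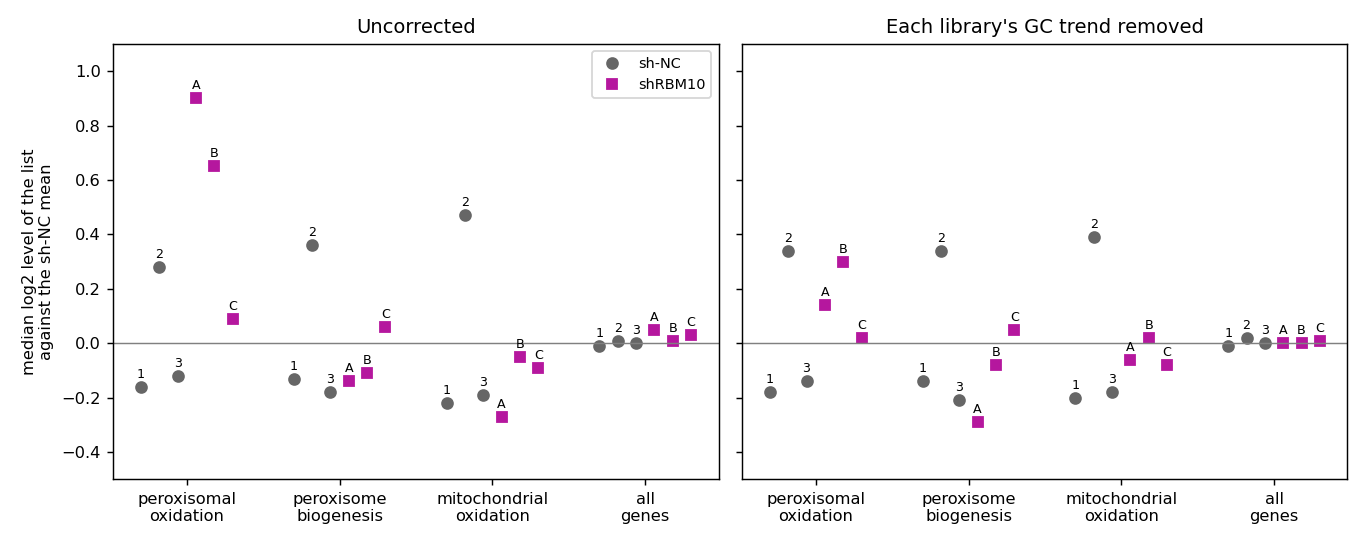
Median log2 level of each group of genes relative to the sh-NC mean (vertical axis), per library, with circles for sh-NC replicates 1 to 3 and squares for shRBM10 libraries A to C. Libraries A and B stand above the rest for peroxisomal oxidation before the GC correction (0.90 and 0.65) and not after it (0.14 and 0.30), and sh-NC replicate 2 is the highest library for the other two groups.

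Because RBM10 is a splicing regulator, the share of each transcript in its gene's count was compared. By edgeR's test of transcript usage with a Simes p per gene, 31 members had at least 2 transcripts kept, and 0 of them had an adjusted p under 0.05, against 0.0958% of all genes (8 of 8348), with 0 at an unadjusted p under 0.05 (against 2.74%). limma's diffSplice gave 2 of the 31 at an unadjusted p under 0.05 (against 5.47% of all genes) and 0 after adjustment. Of 123 member transcripts with a mean of at least 10 counts, the share was lower without overlap in 8 (6.50%, against 6.33% of all such transcripts) and higher in 8 (6.50%, against 7.07%). Transcript counts are estimates, since only 41.1% of them are whole numbers in the deposited table.

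ACADVL, the very long-chain acyl-CoA dehydrogenase of mitochondria, had the smallest Simes p of the members in the main fit (adjusted p = 1.0, edgeR). In every other setting run another member had a smaller unadjusted Simes p, such as 0.0076 against 0.0167 for ACADVL by limma's diffSplice. The ACADVL transcript NM_001033859 is linked in GENCODE release 29 to a model that lacks exon 3 of the full-length transcript. That exon, chr17:7220464-7220529 on the plus strand of GRCh38, is 66 bases (22 codons) of coding sequence, so leaving it out keeps the reading frame. It is shown in capitals between 20 bases of each neighbouring exon, because it is the coding stretch by which the 2 models differ. Their ends differ as well.
ACADVL exon: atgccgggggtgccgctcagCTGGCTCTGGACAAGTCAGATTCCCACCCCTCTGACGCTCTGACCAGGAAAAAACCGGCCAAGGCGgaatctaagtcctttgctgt
NM_001033859 had 116.5, 85.0 and 93.9 counts in the 3 controls against 10.6, 27.5 and 8.5 in libraries A, B and C. Its share of the gene's count was 4.34% ± 0.712 (SD, n = 3) in sh-NC against 0.802% ± 0.537 (SD, n = 3) in shRBM10, without overlap, and this held in library C too, which had the lowest share. The transcript with exon 3, NM_000018, took 78.0% ± 2.05 (SD, n = 3) in sh-NC against 83.2% ± 1.15 (SD, n = 3) in shRBM10. ACADVL did not pass over all genes in any setting run, with an adjusted Simes p between 0.828 (limma's diffSplice) and 1.0. GENCODE links NM_001270448 to the same model, and its share did not separate the groups (10.1% ± 2.05 against 8.34% ± 0.581, SD, n = 3), so which reads stand for the missing exon cannot be read from these counts. Exons of ACADVL also overlap DLG4 on the opposite strand.

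SCP2 has a long and a short form with separate starts. The long transcript NM_002979 (the SCPx thiolase with the carrier domain) starts 87739 bases upstream of the short NM_001007099, which begins within exon 12 of the long model and codes for the carrier protein. The short form had 566.5, 337.1 and 692.2 counts in sh-NC against 1007.3, 1163.0 and 835.3 in shRBM10, and the long form had 340.8, 101.3 and 216.2 against 650.5, 709.3 and 294.1. The short form took 67.9% ± 6.74 of the count in sh-NC against 61.4% ± 5.19 in shRBM10, and the long form 26.7% ± 8.19 and 32.3% ± 7.52 (SD, n = 3 each). The groups overlapped for both shares, and SCP2 had an adjusted p of 1.0 (edgeR). The count of HSD17B4 was nearly all in 1 transcript, NM_000414, with 96.1% ± 4.26 in sh-NC against 96.3% ± 0.301 in shRBM10 (SD, n = 3 each).

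**Figure D5:**
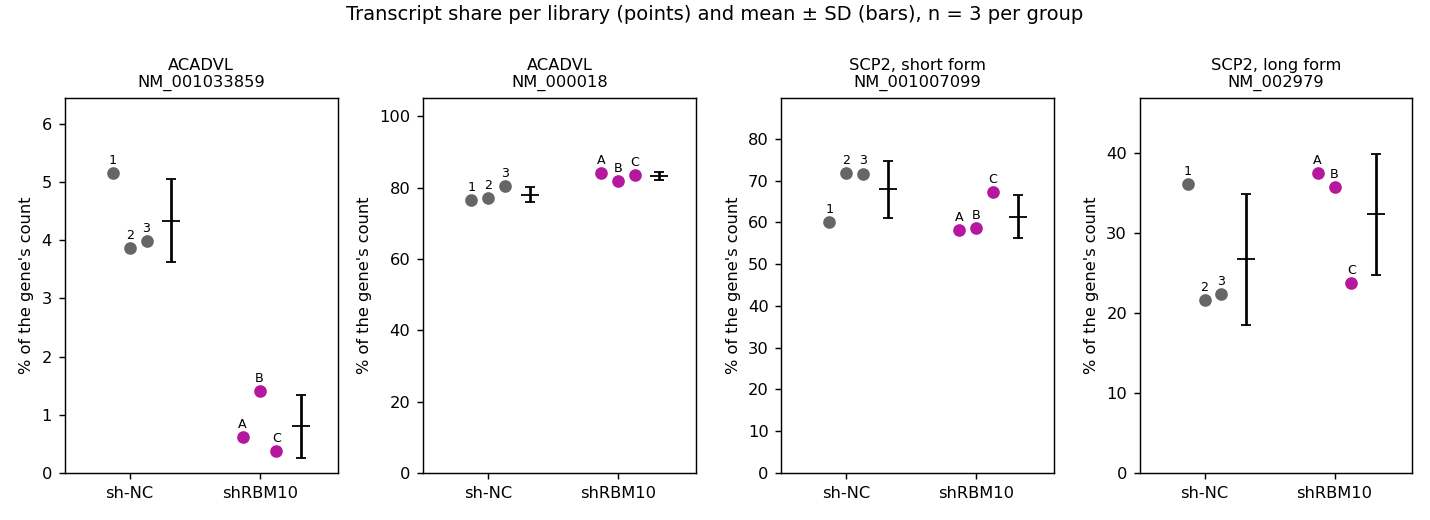
Share of the gene's count in percent (vertical axis) of 2 transcripts of ACADVL and 2 of SCP2, per library, with mean ± SD (n = 3) beside the points. The share of NM_001033859, 1 of 2 ACADVL transcripts linked to the model without exon 3, was 0.802% in shRBM10 against 4.34% in sh-NC without overlap, while the SCP2 shares overlap.

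Among the next members by Simes p, GNPAT and PEX10 held transcripts whose shares separated the groups. In GNPAT (adjusted p = 1.0, edgeR), XM_005273313 took 15.5% ± 3.71 in sh-NC against 8.28% ± 2.45 in shRBM10, and XM_011544304 took 1.56% ± 1.54 and 4.69% ± 0.967 (SD, n = 3 each). In PEX10 (adjusted p = 1.0, edgeR), NM_001374427 took 27.2% ± 11.1 and 10.7% ± 4.24 (SD, n = 3 each), and the most counted transcript NM_002617 overlapped. In PEX16 (adjusted p = 1.0, edgeR) both transcripts overlapped. None of these genes passed an adjusted threshold.

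Other genes of the same pathways, listed by name, also lay on both sides of 0. Of 31 other peroxisomal genes tested, 17 were above 0 (median log2 fold change 0.13) and 0 passed the adjusted threshold, while 4 passed the paired limits higher (against 10.1% of all genes) and 1, the membrane channel protein PXMP2, lower (-1.03; against 1.53%). CROT, the carnitine acyltransferase that exports shortened chains, had normalized counts of 170.7, 93.6 and 175.2 in sh-NC against 545.1, 476.4 and 200.7 in shRBM10 (log2 fold change 1.47, SE 0.42, and 0.70 with the GC correction), and TMEM135 had 188.6, 295.7 and 196.6 against 693.5, 582.7 and 282.6 (1.20, SE 0.37, and 0.30 with the correction). Library C was the lowest shRBM10 library in both.

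Of 18 other mitochondrial oxidation genes tested, 12 were above 0 (median 0.25), 2 passed the paired limits higher and 0 lower, against the same 10.1% and 1.53%. The smallest p-values were those of ACADSB, a branched-chain acyl-CoA dehydrogenase (log2 fold change 1.55, SE 0.47, and 0.73 with the GC correction), the acyl-CoA synthetase ACSL1 (0.82, SE 0.25, and 0.53) and ECHDC2 (0.80, SE 0.27). ECHDC2 had 113.2, 109.9 and 132.3 in sh-NC against 215.6, 193.6 and 208.4 in shRBM10, with no library standing apart, and its corrected log2 fold change was 1.05. Of 15 regulators tested, 8 were above 0 (median 0.26) and 2 passed the limits higher, against 10.1%. These were PRKAA1, a catalytic subunit of AMPK (1.23, SE 0.38, and 0.52 with the correction), and PPARA, the fatty acid receptor that drives many of these genes in liver (1.09, SE 0.41). PRKAA1 had 481.5, 301.1 and 480.9 against 1468, 989.8 and 506.1, with library C near the controls. PPARA had 248.8, 88.2 and 293.2 against 523.7, 465.0 and 360.6, and its corrected value was 0.95. RXRB, a partner receptor, had -0.53 (SE 0.24, adjusted p = 0.205), and -0.25 with the correction. PPARGC1A and HNF4A had at most 3 counts in any library and were not tested. By edgeR's test, 0 of these 3 lists' genes had an adjusted p under 0.05.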

How the data were processed

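RNA-seq of PC9 cells (3 sh-NC and 3 shRBM10 libraries) was analysed from the tables that the authors deposited. These hold estimated counts per gene (16306 genes) and per RefSeq transcript (76563), and the deposited estimated counts were rounded to whole numbers before testing. The TPM values, computed by the authors, were used for the sh-NC libraries only. The genome build is hg38 per the labels. The aligner, counter and annotation are not given in the sources used here. The columns of 2 shRBM10 libraries match no sample title, so these libraries have no replicate number and are called B and C. Their group was read from the column names. Columns of per-sample values not used numbered 15 in the gene table and 18 in the transcript table, besides 8 columns of group means in each.

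Genes passing edgeR's filterByExpr were TMM-scaled. The test was glmQLFTest after glmQLFit (edgeR 4.0.16, R 4.3.3), without covariates and with Benjamini-Hochberg adjustment over all genes. The standard error is the log2 fold change divided by the square root of F. DESeq2 1.42.0 and limma 3.58.1 (voom) were alternatives. Transcript usage was tested with diffSpliceDGE. For the GC correction a loess trend (span 0.3) of each library on transcript GC content entered as an offset (12567 genes, 99.6%). The transcript was the most counted of those with a RefSeq link in GENCODE release 29. Genes without such a link took the longest coding transcript or, failing that, the longest transcript. The scripts were tested on simulated data as a check of the code only. Intervals between libraries cover their spread only, and depth was 16606401 to 18864241 counts.

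The 42 members, the other gene lists and the markers were chosen with earlier results of these data known. The paired limits (unadjusted p under 0.05, absolute log2 fold change over 1) follow those of the study. Values per library are given for HSD17B4, SCP2, and in each group up to 6 members with the smallest p and up to 2 with the smallest absolute fold change. Of each other list, up to 3 genes with the smallest p are named, except 1 that is not reported here, and for transcripts HSD17B4, SCP2 and the 4 other members with the smallest Simes p. PXMP2, PPARGC1A and HNF4A were named after their values were seen.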

Additional observations from a re-analysis of the deposited data

How the results depend on the processing

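No paired analysis was possible because the columns of 2 shRBM10 libraries carry no replicate number. By edgeR, 0 members passed the adjusted threshold, against 4 by DESeq2 (HSD17B4 at 1.27 and SCP2 at 1.02 among them) and 2 (DECR1 and ACAA1) with the GC correction and without sh-NC replicate 2, a setting chosen after seeing the data in which 9.08% of all genes passed. The 6 members past the paired limits on the higher side became 0 with the GC correction, with GC and length, and with GC and without sh-NC replicate 2. The shares of all genes there were 2.42%, 2.45% and 2.33%, where 10.1% passed without correction. With no limit on the fold change the members were 9, against 15.7% of all genes. With 1 library left out they were 3 to 8. They were 3 without sh-NC replicate 2, shRBM10 library A or B, where the share of all genes was 4.81%, 3.33% and 6.76%. Without shRBM10 library C they were 8, where it was 13.5%. On the lower side the count was 0, against 1.53% of all genes without correction. With 1 library left out it was 0 to 1, against 1.18% to 3.30%, and with no fold limit 1, against 8.60%. Members without overlap between groups were 6 to 23 on the higher side and 7 to 12 on the lower with 1 library left out, against 15.0% to 33.9% and 17.3% to 28.6% of all genes. They were 23 and 8 without sh-NC replicate 2 (against 23.4% and 23.4%), 18 and 12 without shRBM10 library C (against 33.9% and 28.6%), and 5 and 4 after the GC correction (against 14.2% and 16.0%). These comparisons of overlap were added after seeing the data. The sign of PEX13 reversed with GC and length (-0.11), and that of ACADM with GC and without sh-NC replicate 2 (-0.05). Their causes were not tested. Scaling by library size only moved the median of all genes to 0.16. No setting gave a member an adjusted p under 0.05 for transcript usage. With 3 libraries per group, a difference smaller than the spread between libraries could not be shown.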
